A study of Mus musculus with 6 samples.

Results

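The genes described here are the liver X receptors (LXR), genes listed as their targets in lipid efflux, and Ch25h. They were chosen by symbol as Nr1h2, Nr1h3, Abca1, Abcg1, Apoe, Mylip, Srebf1, Lpl, Pltp and Ch25h. All 10 were found in the table of 55453 genes, and all 10 were among the 13680 that passed the filter on low counts. RNA-Seq was performed on bone marrow-derived macrophages (BMDM), macrophages grown from mouse bone marrow, in 6 libraries, 3 labelled PP2A KO and 3 labelled Wild Type, all of the C57BL/6 strain. The PP2A KO libraries (PP2Ac KO) come from mice with Cre under the Lysozyme 2 promoter (LysM) and loxP sites around exon 1 of Ppp2ca, the gene of the catalytic subunit of the phosphatase PP2A. The PP2Ac WT mice came from a different source and are not described as littermates, so the genotype cannot be told apart from the colony or from the presence of Cre. By the methods of the study, mice of both sexes aged 6 to 10 weeks were used and macrophages were collected on day 7 of culture, grown with M-CSF or with medium conditioned by L929 fibroblasts. All 6 libraries were taken as treated with the STING agonist cGAMP (10 μg/mL, 4 hours), as the study describes for its RNA-Seq, although the labels give no treatment and no untreated library was analysed here. The comparison asks how expression differs between macrophages without and with PP2Ac.

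LXRs are nuclear receptors that bind oxysterols, oxidized forms of cholesterol, and act as partners of the retinoid X receptors (RXR). In macrophages loaded with cholesterol, they switch on transporters that pass cholesterol to lipoprotein particles outside the cell, lipoproteins and lipases that carry or remodel those lipids, and a ubiquitin ligase that limits lipoprotein uptake. Ch25h makes the oxysterol 25-hydroxycholesterol and is also known as a gene induced by type I IFN in macrophages. It was grouped with the others by the choice of symbols, and its changes are not taken as those of an LXR target.

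Promoter windows from RefSeq (GRCm38.p6, 250 bases before to 50 bases after a start) were given for 8 of the 10 genes, 13 windows in all, but not for Abcg1 and Lpl. The element bound by LXR with RXR, named DR4, was searched on both strands as the letters AGGTCA repeated after a gap of 4 bases. With at most 2 mismatches it was found in 0 of the 13 windows and in 3.02% of all 32851 windows. With at most 3 mismatches, a limit set after that result was seen, it was found in 1 window of Abca1 and 1 of Srebf1, and in 21.9% of all windows. The core of the IFN-stimulated response element, GAAA repeated after a gap of 2 bases, was found in 0 of the 13 windows and in 3.44% of all. A cyclic AMP response element, TGACGTCA, which was looked for after the sequences were read, was found in the window of Ch25h and in 1.79% of all windows. The 3 stretches below are shown because they hold the only matches of these searches, and because Abca1 and Ch25h had the smallest and the largest difference between genotypes among the 10 genes. Each is written 5′ to 3′ on the strand of the gene, and capitals mark the match.
Abca1, chr4:53159923-53159986, minus strand, match on the opposite strand of the gene from -67 to -52: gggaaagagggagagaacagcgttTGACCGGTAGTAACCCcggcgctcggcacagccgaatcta
Srebf1, chr11:60210614-60210677, minus strand, match on the opposite strand of the gene from -182 to -167 of the third RefSeq start: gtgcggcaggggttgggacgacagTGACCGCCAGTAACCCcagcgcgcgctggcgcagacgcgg
Ch25h, chr19:34475178-34475233, minus strand, match from -61 to -54: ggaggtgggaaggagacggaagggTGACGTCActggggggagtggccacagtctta
The matches are descriptions of the letters, and binding was not measured. Elements outside these windows, or with more differing letters than allowed, could not be found by this search. A count of 0 therefore does not show that a gene lacks such an element.

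Between 35257156 and 46647682 reads per PP2Ac KO library and between 38235133 and 47390899 per PP2Ac WT library were counted on genes. Ppp2ca itself had 33 to 47 counts in the 3 PP2Ac KO libraries and 8279 to 10654 in the 3 PP2Ac WT libraries, and only a part of its transcript lies in the floxed exon. The macrophage markers Csf1r, Adgre1 and Cd68 were at 1132 to 3561 CPM in every library (CPM, the count of a gene relative to the scaled total of its library), whereas Lyz2, the gene whose promoter drives Cre, was at 6.58 to 10.1 CPM. Another gene shares 15.4% of the 50-base stretches of Lyz2, the treatment of such reads in the counting is not given in the sources used here, and the part of shared reads in this low value was not tested. The value is therefore an uncertain measure of the gene. At an edgeR adjusted p under 0.05, 18.1% of all genes tested were higher in PP2Ac KO and 19.0% lower. Of the 10 macrophage markers listed, 3 were higher in PP2Ac KO (Fcgr1, C1qa and C1qb) and 0 lower. The summed level of all 10 was 11880 to 12046 CPM in PP2Ac KO and 9657 to 10253 CPM in PP2Ac WT. Of 8 fibroblast markers, 7 were tested and 6 were lower in PP2Ac KO, and their summed level was 25.4 to 37.7 CPM in the PP2Ac KO libraries against 81.2 to 127 CPM in the PP2Ac WT libraries. All 6 adipocyte markers listed, Adipoq and Plin1 among them, had 3 counts or fewer in every library. Of 6 dendritic cell markers, 4 were tested and 2 were higher in PP2Ac KO, Clec9a (2.38-fold, edgeR adjusted p = 0.0284) and Siglech (1.96-fold, adjusted p = 0.0194), at a summed level of 2.18 to 3.16 CPM against 1.24 to 2.05 CPM in PP2Ac WT. Of the neutrophil and the lymphocyte markers 1 each was tested, and neither was called. Levels are scaled with TMM factors, which were 0.910 to 0.938 in PP2Ac KO and 1.05 to 1.10 in PP2Ac WT. With library totals alone, a scaling added after the data were seen, the median difference over all genes on the log2 scale moved from -0.02 to -0.24 and the share of higher among called genes from 48.7% to 19.7%. Upper-quartile scaling gave a share of 38.4%. Small changes are therefore relative to the scaling, which is named where it turns a direction.

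In PP2Ac KO BMDM, Ch25h rose most among the 10 genes, to 4.78 times its PP2Ac WT level, followed by the exporter Abcg1 at 1.75 times, the receptor Nr1h3 at 1.35 times and the receptor Nr1h2 at 1.15 times. The exporter Abca1 had nearly equal means in both genotypes. At an adjusted p under 0.05 (quasi-likelihood test of edgeR, Benjamini-Hochberg adjusted over all genes), 4 of the 10 genes were higher and 0 were lower, where 18.1% of all genes tested were higher and 19.0% lower. When the replicate number was added as a block, 5 were higher and 2 lower, against 24.4% and 26.4% of all genes. At an adjusted p under 0.01 and at least a 2-fold change, 1 gene, Ch25h, was higher and 0 were lower, against 3.36% and 2.99% of all genes. For 6 of the 10 genes the 3 PP2Ac KO libraries did not overlap the 3 PP2Ac WT libraries, which also held for 50.9% of all genes. The median log2 fold change was 0.09 over the 10 genes and -0.02 over all genes. In such bulk samples, fewer cells that express a gene and less RNA per cell cannot be told apart.

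**Figure D1:**
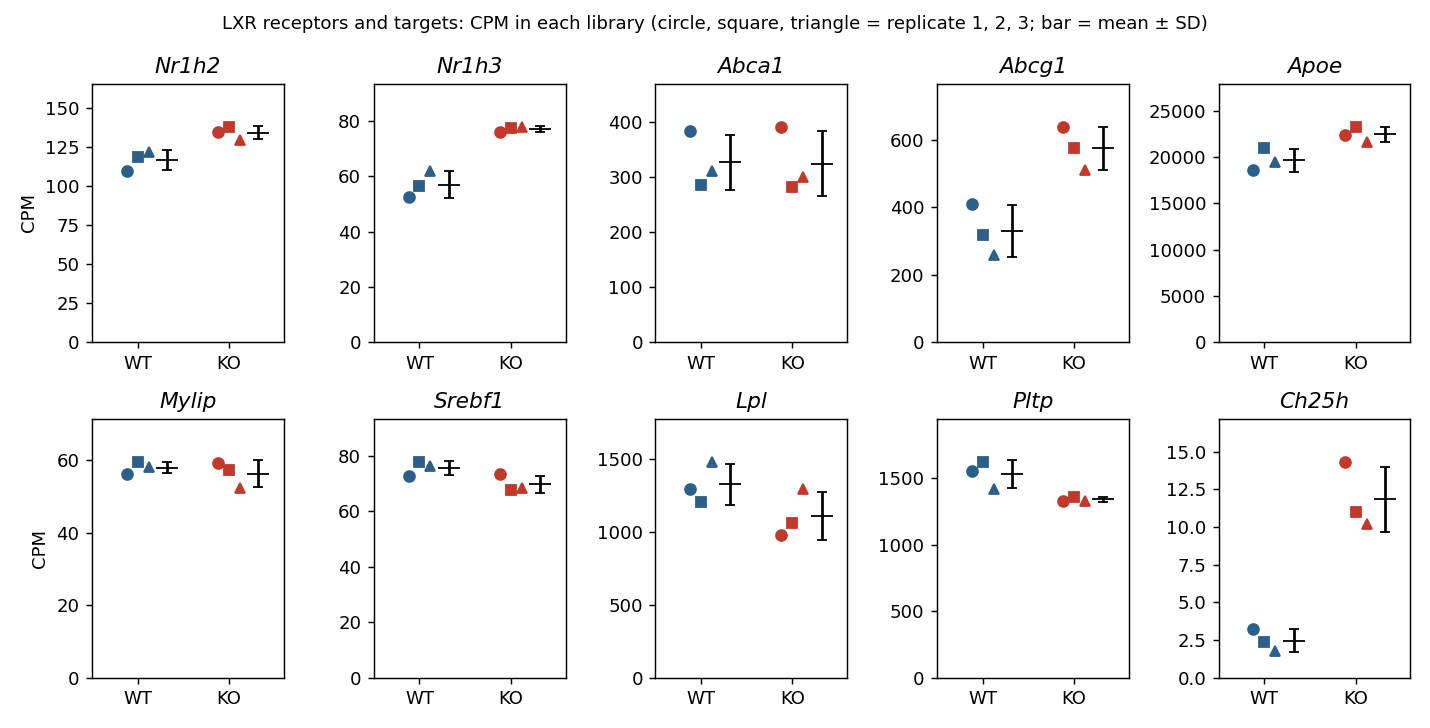
TMM-scaled CPM (linear axes from 0) of each of the 10 genes in every library; blue points are PP2Ac WT, red points PP2Ac KO, the shape gives the replicate number, and the bar the mean ± SD of 3 libraries. Ch25h, Abcg1, Nr1h3, Nr1h2 and Apoe (PP2Ac KO above) and Pltp (PP2Ac KO below) are separated by genotype, as are 50.9% of all genes. Abca1 is separated by replicate number, with replicate 1 highest in both genotypes.

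**Figure D2:**
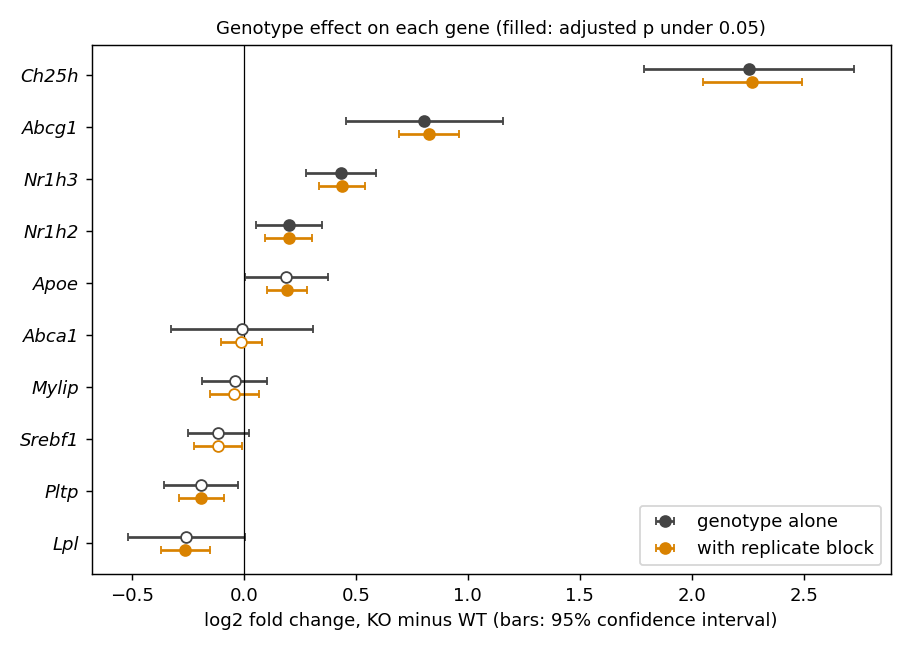
Log2 fold change, PP2Ac KO minus PP2Ac WT, of each gene with its 95% confidence interval, from the fit with genotype alone (grey) and from the fit blocked on replicate number (orange); filled points have an adjusted p under 0.05. The estimates are nearly equal in both fits, and the intervals are narrower with the block, in which Apoe, Pltp and Lpl are also filled.

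Both LXR genes were higher in PP2Ac KO. Nr1h3 encodes LXRα, the form enriched in macrophages, liver and fat, and lies on chromosome 2 from 91184061 to 91202834 (minus strand, GRCm38). It was counted at 76.1, 77.5 and 78.0 CPM in PP2Ac KO replicates 1, 2 and 3 and at 52.5, 56.7 and 62.1 CPM in PP2Ac WT replicates 1, 2 and 3. The genotypes did not overlap, and the PP2Ac KO libraries were within 2 CPM of each other. The log2 fold change was 0.44 (SE of 0.07, edgeR adjusted p = 0.00126), and Nr1h3 was also called without any 1 of the 6 libraries (adjusted p from 6.19e-04 to 0.00866). Nr1h2 encodes LXRβ, which is expressed in most tissues, and lies on chromosome 7 from 44549616 to 44553951 (minus strand). It was counted at 134, 138 and 130 CPM in PP2Ac KO and at 109, 119 and 122 CPM in PP2Ac WT. All 3 PP2Ac KO libraries were above the PP2Ac WT libraries, but by less than for Nr1h3. Its log2 fold change was 0.20 (SE 0.07, edgeR adjusted p = 0.0382, and 0.00466 with the block). That call was lost when any 1 library other than PP2Ac WT replicate 3 was left out (adjusted p from 0.0634 to 0.149), with upper-quartile scaling (adjusted p = 0.161) and without a filter (adjusted p = 0.0733). The difference turned to -0.02 with library totals alone, next to a median of -0.24 over all genes. Relative to the median of all genes, Nr1h2 was at 0.22 both with TMM scaling and with library totals alone.

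The share of Nr1h3 in the summed level of both receptors, per length of exons, does not depend on the scaling of a library. It was 43.0%, 42.9% and 44.5% in PP2Ac KO and 39.1%, 38.9% and 40.5% in PP2Ac WT. Every PP2Ac KO library was above every PP2Ac WT library, with a difference in means of 3.99 percentage points (exact permutation test, two-sided, p = 0.1, the smallest p that 3 against 3 allows). Of the 2741 windows of 50 bases in Nr1h3 transcripts, 0 occur in those of another gene, and the same held for the 3918 windows of Nr1h2, so no stretch of this length was shared between the receptors.

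Of the exporters, Abcg1 was higher in PP2Ac KO and Abca1 was not called. Abcg1, which passes cholesterol to HDL particles, lies on chromosome 17 from 31057675 to 31117988 (plus strand). It was counted at 639, 576 and 510 CPM in PP2Ac KO and at 411, 317 and 258 CPM in PP2Ac WT. The genotypes did not overlap, and within each genotype replicate 1 was highest and replicate 3 lowest. Its log2 difference was 0.81 (SE 0.16, edgeR adjusted p = 0.00328), and leaving out any 1 library gave values from 0.66 to 0.9996 with adjusted p from 1.76e-04 to 0.0171. Abca1 passes cholesterol and phospholipid to lipid-poor apolipoprotein A-I and lies on chromosome 4 from 53030787 to 53159895 (minus strand). Its values were 391, 283 and 300 CPM in PP2Ac KO and 383, 286 and 310 CPM in PP2Ac WT. Replicate 1 was far above the others in both genotypes, and the genotypes overlapped. On the log2 scale the fold change was -0.01 (95% confidence interval -0.32 to 0.31, edgeR adjusted p = 0.971), with the sign turned under RLE scaling (0.02). In the blocked fit, the interval narrowed to -0.10 to 0.08 (adjusted p = 0.829), and the same-numbered libraries differed by 0.03, -0.02 and -0.05 on the log2 scale. The log2 ratio of Abcg1 to Abca1 counts within a library, a measure chosen after the values were seen, was 0.71, 1.03 and 0.77 in PP2Ac KO and 0.11, 0.15 and -0.26 in PP2Ac WT. The ranges did not overlap, with a difference in means of 0.84 (exact permutation test, two-sided, p = 0.1, the smallest possible).

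Apoe and Pltp encode the lipoprotein partners of efflux, and the estimates of their small differences had opposite signs. Apoe, whose secreted apolipoprotein accepts cholesterol, lies on chromosome 7 from 19696109 to 19699188 (minus strand) and took 2.03% to 2.18% of all counts in PP2Ac KO and 1.95% to 2.28% in PP2Ac WT. It had the most counts of any gene in all 3 PP2Ac KO libraries, and was in place 2, 2 and 3 in the PP2Ac WT libraries. After scaling it was at 22419, 23271 and 21623 CPM in PP2Ac KO and at 18558, 21012 and 19420 CPM in PP2Ac WT. The scaled values did not overlap, whereas the shares of all counts did. The log2 fold change of 0.19 (SE 0.08) was not called with genotype alone (edgeR adjusted p = 0.103) and was called with the block (adjusted p = 0.00231) and by DESeq2 (adjusted p = 0.0184). It turned to -0.03 with library totals alone, next to a median of -0.24 over all genes. Relative to the median of all genes, Apoe was at 0.21 with either scaling. Pltp, which transfers phospholipid between lipoproteins, lies on chromosome 2 from 164839518 to 164857711 (minus strand), and 19.3% of its exonic bases are shared with Ctsa on the other strand. It was counted at 1329, 1362 and 1332 CPM in PP2Ac KO and at 1555, 1621 and 1419 CPM in PP2Ac WT. All PP2Ac KO libraries were below the PP2Ac WT libraries and close to each other. The log2 fold change was -0.19 (SE 0.07, edgeR adjusted p = 0.0679), and it was called with the block (-0.19, adjusted p = 0.00461) and with upper-quartile scaling (-0.26, adjusted p = 0.0215). It was also called without PP2Ac WT replicate 3 (-0.24, adjusted p = 0.0350) and with library totals alone (-0.41, adjusted p = 0.00137). With library totals alone the median over all genes was -0.24, and relative to that median Pltp was at -0.17, as it was with TMM scaling.

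Lpl encodes lipoprotein lipase, which splits the triglyceride of lipoproteins, and lies on chromosome 8 from 68880491 to 68907448 (plus strand). It was counted at 981, 1061 and 1294 CPM in PP2Ac KO and at 1296, 1207 and 1481 CPM in PP2Ac WT. The genotypes overlapped, since PP2Ac KO replicate 3 was above PP2Ac WT replicate 2, but each PP2Ac KO library was below the PP2Ac WT library of the same number, with log2 differences of -0.40, -0.19 and -0.20. Its log2 difference was -0.26 (SE 0.12, edgeR adjusted p = 0.114, and 0.00127 with the block). It was called without PP2Ac KO replicate 3 (-0.38, adjusted p = 0.0319), without a filter on low counts (adjusted p = 0.0156) and with library totals alone (-0.47, adjusted p = 0.00810). With library totals alone the median over all genes was -0.24, and relative to that median Lpl was at -0.23, as it was with TMM scaling. The summed fibroblast markers given above, 6 of 7 tested lower, were also lower in PP2Ac KO, and their part in the values of Lpl and Pltp was not tested.

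Mylip and Srebf1 were not called in either fit. Mylip encodes IDOL, a ubiquitin ligase that limits lipoprotein uptake, and lies on chromosome 13 from 45389742 to 45412022 (plus strand). Its values were 59.4, 57.4 and 52.2 CPM in PP2Ac KO and 56.3, 59.5 and 58.0 CPM in PP2Ac WT. The libraries of the genotypes were interleaved, with a log2 fold change of -0.04 (95% confidence interval -0.19 to 0.11, edgeR adjusted p = 0.658) that turned to 0.01 without PP2Ac KO replicate 3 and was -0.26 and called with library totals alone (adjusted p = 0.00919), next to a median of -0.24 over all genes. Srebf1 encodes SREBP1, the transcription factor of fatty acid synthesis, and lies on chromosome 11 from 60199089 to 60222581 (minus strand). It was counted at 73.3, 67.6 and 68.4 CPM in PP2Ac KO and at 72.6, 77.7 and 76.3 CPM in PP2Ac WT. PP2Ac KO replicate 1 lay within the PP2Ac WT range and the other two below it. On the log2 scale the fold change was -0.11 (95% confidence interval -0.25 to 0.02, edgeR adjusted p = 0.169, and 0.0713 with the block). It was called with upper-quartile scaling (-0.18, adjusted p = 0.0460) and library totals alone (-0.33, adjusted p = 0.00197). Relative to the median of all genes, Srebf1 was at -0.09 both with TMM scaling and with library totals alone. Counts per gene do not part its isoforms, of which 12 transcripts are annotated.

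Ch25h lies on chromosome 19 from 34473778 to 34475164 (minus strand) in a single transcript of 1387 bases. It had 607, 364 and 425 counts in PP2Ac KO and 161, 104 and 73 counts in PP2Ac WT. Scaled, these were 14.3, 11.03 and 10.2 CPM in PP2Ac KO and 3.24, 2.39 and 1.74 CPM in PP2Ac WT. The lowest PP2Ac KO library was far above the highest PP2Ac WT library, and replicate 1 was highest in both genotypes. The log2 fold change was 2.26 (SE 0.21, edgeR adjusted p = 1.05e-04), and leaving out any 1 library gave 2.07 to 2.52. Same-numbered libraries differed by 2.14, 2.21 and 2.55. The long noncoding RNA Gm26902 on the other strand shares 11.5% of its exonic bases, and the strand setting of the counting is not given in the sources used here.

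**Figure D3:**
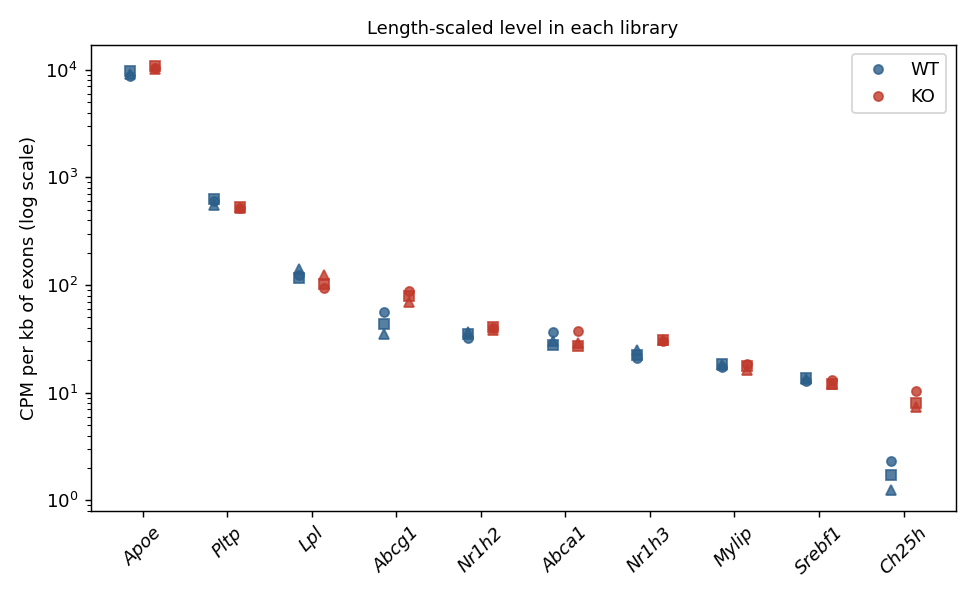
Level per length (CPM per kb of annotated exons, log scale) of each gene in every library, in the order of the PP2Ac WT means; blue is PP2Ac WT, red PP2Ac KO, and the shape gives the replicate number as before. Apoe is highest, and Ch25h is lowest in both genotypes, with 1.77 in PP2Ac WT and 8.54 in PP2Ac KO.

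Levels of different genes were compared per kb of exons. In PP2Ac WT, Apoe stood first with 9197 ± 582 CPM per kb (SD, n = 3), followed by Pltp with 598 ± 40.3 and Lpl with 127 ± 13.4. Abcg1, Nr1h2 and Abca1 followed with 45.1 ± 10.6, 34.8 ± 1.95 and 31.5 ± 4.84 CPM per kb, and neighbours among these overlapped between libraries. Below them were Nr1h3 with 22.7 ± 1.90, Mylip with 17.9 ± 0.493, Srebf1 with 13.4 ± 0.466 and Ch25h with 1.77 ± 0.542 CPM per kb, without overlap of neighbours. In PP2Ac KO, Abcg1 was at 78.8 ± 8.82 CPM per kb and no longer overlapped Nr1h2 at 39.9 ± 1.23. The level per kb of Nr1h3 in PP2Ac KO, 30.7 ± 0.403, lay within the range of Abca1, 31.3 ± 5.64. By the longest transcript in place of all exons, Lpl was at 323 CPM per kb in PP2Ac WT and kept its place, while Nr1h2 was above Abcg1 in PP2Ac WT and Nr1h3 above Abca1 in PP2Ac KO.

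The other genes of the pathway were taken from 7 lists. Of the RXRs and related receptors, 7 of 9 were tested, 1 was higher and 4 were lower, beside 18.1% and 19.0% of all genes tested, and their median was -0.23 on the log2 scale. Rxra, an RXR partner of LXR, fell from 97.5 ± 7.76 to 56.4 ± 6.37 CPM (SD, n = 3), a log2 change of -0.79 (SE 0.09, edgeR adjusted p = 2.78e-04). Rxra was lower in every PP2Ac KO library, at 51.9 to 63.6 CPM against 91.2 to 106 CPM. Rxrb, another RXR gene, was at 45.8 to 52.2 CPM in PP2Ac KO and 55.4 to 60.1 CPM in PP2Ac WT. Its log2 change was smaller, at -0.23 (SE 0.07, edgeR adjusted p = 0.0268). Both LXR genes were higher, although the call of Nr1h2 depended on the scaling and on single libraries. Nr1d1, a repressor of the circadian clock, and Ppard, a lipid sensor, changed by -0.75 and -0.66 (adjusted p = 0.00892 and 5.99e-04 from edgeR). The counts of Nr1d1 were low, at 33 to 48 in PP2Ac KO and 68 to 87 in PP2Ac WT. Without PP2Ac WT replicate 1 the number of higher genes was 2. Of 15 LXR coregulators, 5 were higher and 2 lower, beside 18.1% and 19.0% of all genes, and the median was 0.17. With the block, 9 were higher and 3 lower, beside 24.4% and 26.4% of all genes. The corepressor subunit Tbl1x, the deacetylase Sirt1 and the coactivator Ncoa5 rose by 0.63, 0.57 and 0.31 on the log2 scale (adjusted p = 0.00125, 0.00479 and 0.00180 from edgeR), although Ncoa5 was at 0.10 and not called with library totals alone. The number of lower coregulators was 0 without PP2Ac KO replicate 2 and 1 without PP2Ac KO replicate 3. For left-out libraries, here and in the lists below, the shares of all genes called are not given.

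Among 13 tested genes of the list of other LXR targets, 3 were higher and 3 lower, which is near the 18.1% and 19.0% of all genes, and the median was 0.06. Il1rn, the antagonist of the IL-1 receptor, rose from 52.6 ± 12.5 to 126 ± 25.6 CPM (log2 fold change 1.26, edgeR adjusted p = 7.36e-04), Acsl3, a ligase of fatty acids with coenzyme A, fell from 14.6 ± 1.01 to 7.26 ± 1.34 CPM (-1.004, adjusted p = 4.32e-04), and the desaturase Scd2 fell from 30.0 ± 5.604 to 18.0 ± 4.75 CPM (-0.73, adjusted p = 0.0117). Scd2 was not called without PP2Ac KO replicate 1 or 2 (adjusted p = 0.0506 and 0.0501). With the block, 5 of these targets were higher and 6 lower, beside 24.4% and 26.4% of all genes. The number higher was 1 without PP2Ac KO replicate 1, without PP2Ac KO replicate 2 or without PP2Ac WT replicate 3, and the number lower was 5 without PP2Ac WT replicate 3. The called genes of this list lay in both directions, and whether they depend on LXR in these cells was not tested.

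Enzymes of fatty acid synthesis, targets of SREBP1, were 5 lower and 1 higher of 10 tested, with a median of -0.19, beside 19.0% of all genes lower and 18.1% higher. Fads2, a desaturase, and Fasn, the fatty acid synthase, fell by 0.69 and 0.60 on the log2 scale (adjusted p = 1.65e-04 and 0.0105 from edgeR), and Acacb, an acetyl-CoA carboxylase at under 2.1 CPM in every library, rose by 1.05 (adjusted p = 0.00518). The gene of their regulator, Srebf1, was not called (-0.11).

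Of 15 genes for storage, trafficking and uptake of cholesterol, 4 were higher and 3 lower, which is near the 18.1% and 19.0% of all genes, and the median was -0.21. Stard3, which moves cholesterol from late endosomes, rose from 167 ± 8.24 to 239 ± 4.24 CPM (log2 fold change 0.52, edgeR adjusted p = 3.60e-04). Npc1, which exports cholesterol from lysosomes, changed by -0.34 (adjusted p = 0.0167, and 0.0782 without PP2Ac KO replicate 2). With the block, 6 genes of this list were lower, beside 26.4% of all genes. The number higher was 2 without PP2Ac KO replicate 1, PP2Ac KO replicate 2 or PP2Ac WT replicate 3 and 1 without PP2Ac WT replicate 2, and the number lower was 0 without PP2Ac KO replicate 2.

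Of the 6 oxysterol genes, 4 were tested. Cyp27a1, the mitochondrial enzyme that makes another oxysterol from cholesterol, rose to 128 ± 12.5 CPM from 61.0 ± 9.84 CPM (SD, n = 3), which is 1.07 on the log2 scale (SE 0.12, edgeR adjusted p = 2.17e-04). Its values were 138, 131 and 114 CPM in PP2Ac KO and 71.2, 60.1 and 51.5 CPM in PP2Ac WT, with no overlap. Gpr183, the receptor of an oxysterol made from the product of Ch25h, fell from 8.48 ± 1.84 to 4.07 ± 1.25 CPM, a log2 fold change of -1.06 (SE 0.23, adjusted p = 0.00621). Ch25h and Cyp27a1 were higher and Gpr183 lower, and Cyp7b1, which acts between Ch25h and Gpr183, had 0 to 1 counts in the PP2Ac KO libraries, 1 to 9 in the PP2Ac WT libraries, and was not tested. The list named LPL partners also holds lipases other than LPL, and 7 of its 12 genes were tested. Angptl4, a secreted inhibitor of LPL, fell from 2.33 ± 0.262 to 1.23 ± 0.253 CPM (log2 fold change -0.92, edgeR adjusted p = 0.00510), and Lipe, the hormone-sensitive lipase of stored fat, rose from 58.0 ± 4.76 to 86.4 ± 5.86 CPM (0.57, adjusted p = 5.82e-04). Gpihbp1, which anchors LPL on the endothelium, had 0 counts in all 6 libraries, where 3 counts, taken as the smallest detectable signal, equal 0.0604 to 0.0909 CPM. This floor covers counting error only.

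**Figure D4:**
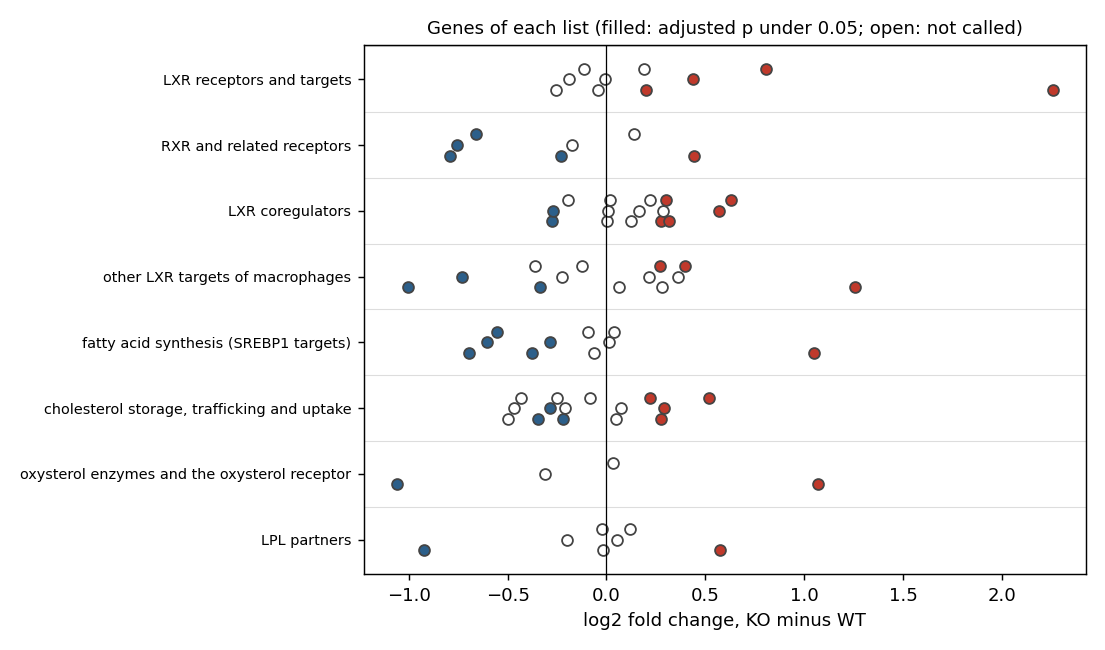
Log2 fold change, PP2Ac KO minus PP2Ac WT, of the 10 genes, Ch25h included, in the row named LXR receptors and targets, and of every tested gene of the 7 lists. Red and blue points have an adjusted p under 0.05 and are higher or lower in PP2Ac KO, and open points were not called. Ch25h is the point farthest to the right at 2.26, and called genes lie on both sides of 0 in each of the 7 lists.

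Over the 6 libraries, the genes whose log2 CPM had the highest Pearson correlation with Ch25h were Rab3ip, Oas2 and Apobec3 (r = 0.999 each). For Nr1h3 they were Gm17018, Rcc2 and Tfe3 (r = 0.9995, 0.996 and 0.993), and for Abca1 they were Abca3, Cux1 and Zc3h13 (r = 0.996, 0.993 and 0.992). These were the highest of 13679 correlations each, over 6 libraries that share genotype and replicate number, and are given as a description.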

How the data were processed

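The authors deposited a table of raw counts of reads per gene symbol for mm10, with no normalization. The submitters' processing notes name fastp 0.20.0, STAR 2.7.1a, HTSeq 0.11.2, kallisto 0.46.1, edgeR 3.34.0 and limma 3.48.3, and the role of each is not given in the sources used here. A directional kit was used on RNA with poly(A) tails, and the strand setting of the counting is not given in the sources used here. If it was not used, reads of overlapping genes cannot be parted.

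Groups and replicate numbers came from the titles of the samples. The study's methods call its replicates in cell experiments biological, without saying whether each came from a separate mouse, so p-values measure the spread between these samples. The genotypes were compared with edgeR 4.0.16 under R 4.3.3 (filterByExpr with a minimum count of 10 and total of 15, TMM, glmQLFit and glmQLFTest for genotype, Benjamini-Hochberg adjustment over 13680 genes). The test was also run on simulated counts, drawn with the same variability for all genes and no effect of replicate number. That check therefore does not cover differences in variability between genes or a shared effect of the replicate number. The biological coefficient of variation was 8.77%. Both genotypes carry replicate numbers 1, 2 and 3 in their titles, and same-numbered libraries deviated together from their group means (correlations across genes of 0.446, 0.275 and 0.459), so a fit with the number as a block was run too. Coordinates and exon lengths came from GENCODE M21 (GRCm38), which holds 98.3% of the symbols, and promoters from RefSeq.

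Results were recomputed with upper-quartile or RLE scaling, without a filter, with at least 10 counts in every library, DESeq2 1.42.0, limma-voom 3.58.1, the block and each library left out in turn. Library totals alone, and Apoe left out of the totals, were added after the data were seen. The members, lists and tests were chosen with earlier results of these data known. Besides the members and Ppp2ca, the rule for names took from each list the 3 genes, where there were as many, with the largest change at an adjusted p under 0.05, and the 3 genes most correlated with Abca1, Nr1h3 and Ch25h. One gene that this rule names is not reported here. Markers, Rxrb, and genes at 0 or not tested, were named outside it after their values were seen.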

Additional observations from a re-analysis of the deposited data

How the results depend on the processing

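Ch25h, Abcg1 and Nr1h3 kept their direction and their call under all 15 alternatives, with log2 fold changes of 2.04 to 2.52, 0.59 to 0.9996 and 0.22 to 0.50. The number of genes of the 10 that were higher stayed within 1.5 times of 4, and the number lower, 0 with genotype alone, was 2 with upper-quartile scaling, 1 without a filter, 2 with the replicate number as a block, 4 with library totals alone and 0 to 1 when 1 library was left out. Among all genes, the number lower was 3356 of 13680, 2852 of 24686, 3615 of 13680 and 6125 of 13680 in the first 4 of these settings. The number higher was 2095, 2559, 3343 and 1503 in the same order. The counts below are to be read beside these, which are not given for left-out libraries. The sign turned for Abca1 (0.0157 with RLE, 0.0173 with DESeq2, -0.17 to 0.12 when 1 library was left out), Mylip (-0.0877 to 0.0142 when 1 library was left out), Nr1h2 (-0.0170) and Apoe (-0.0265), for both of these with library totals alone. In that setting the median over all genes was -0.24. With the block, the higher genes were 2 of the related receptors, 9 coregulators and 5 other targets, and the lower were 6 other targets and 6 cholesterol genes. With upper-quartile scaling, 5 other targets and 5 cholesterol genes were lower, and without a filter 5 and 6. With library totals alone, 2 coregulators, 1 other target and 1 cholesterol gene were higher, and 5, 6 and 7 lower. Also lower with library totals alone were 8 genes of fatty acid synthesis and 3 of the list named LPL partners. Leaving out 1 library gave 1 to 2 related receptors higher, 0 to 2 coregulators lower, 1 to 3 other targets higher and 2 to 5 lower, and 1 to 4 cholesterol genes higher and 0 to 4 lower. The cause of these changes was not tested. The block changed no other call among the 10 genes than those of Apoe, Pltp and Lpl.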
